A study of Rattus norvegicus with 15 samples.

Results

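The 10 genes described here encode the phototransduction cascade of cone photoreceptors and were chosen by name for that role. They are the opsins Opn1sw and Opn1mw, the cone arrestin Arr3, the transducin subunits Gnat2, Gnb3 and Gngt2, the phosphodiesterase subunits Pde6c and Pde6h, and the channel subunits Cnga3 and Cngb3. All 10 were among the 20375 genes measured, and all 10 were among the 15424 genes whose mean level was high enough to be tested. In a cone, light activates an opsin, which activates the cone transducin. Transducin relieves the inhibition of phosphodiesterase 6, the enzyme lowers cGMP, and the cyclic nucleotide-gated channel closes. Arrestin then binds the opsin and ends its signal. Rods run the same cascade with their own set of paralogs, and rods far outnumber cones in the rat retina.

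RNA was sequenced from whole retinas of wild-type Sprague-Dawley rats of postnatal week 12, in 5 groups of 3 libraries each (15 libraries). NT retinas came from healthy animals. The other 12 libraries came from animals given sodium iodate (NaIO3), an oxidant that is toxic to the retinal pigment epithelium, systemically at 40 mg/kg: Sham animals had an intravitreal injection of vehicle, MSC animals received human mesenchymal stem cells from Wharton's jelly, MSCEPO animals received such cells carrying a lentiviral human erythropoietin gene, and DPSC animals received cells labelled DPSC, whose donor tissue is not given in the sources used here. By the paper's methods, the intravitreal injection came before NaIO3 was given. Retinas were labelled as day 31 after transplantation. Animals with a xenograft were also given dexamethasone at 2 mg/kg and then cyclosporin at 10 mg/kg/day. Immunosuppression of the Sham animals is not stated, so the cells and the drugs cannot be told apart in a comparison with Sham. The labels do not say that each library is a separate animal, so p-values measure the spread between these libraries.

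The values are rlog values, a log2 expression scale on which DESeq2 draws noisy values toward the mean of the gene, most strongly for low genes. A difference of 1 is a 2-fold change, fold changes are therefore understated for low genes, and levels of different genes are not compared because rlog values are not scaled by gene length. The depth of each library is not given in these values. The medians of the 15 libraries over all genes lay between 8.63 and 8.82, and no pair of libraries was identical. A gene was called changed when the adjusted p of limma, over all tested genes, was under 0.05 and the change exceeded 2-fold. The MSC library of replicate 1 stood apart in its leukocyte transcripts: its mean level over 13 T and NK cell genes was 2.84 log2 units above the NT mean, and over 14 macrophage and microglia genes 3.65 units above it.

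Promoter sequence was at hand for 5 of the 10 genes. The windows of the opsins and of Arr3 are shown because the values of one opsin overlapped NT in every NaIO3 group while the other opsin and Arr3 were called lower in some. Each run is the 250 bases before the annotated start, on the strand of the gene, from RefSeq on GRCr8, which is a later build than the Rnor_6.0 used for quantification. Capitals mark TAATCC or its reverse complement GGATTA, the core bound by homeodomain factors of the CRX type.
Opn1sw (chr4:58945826-58946075, minus strand): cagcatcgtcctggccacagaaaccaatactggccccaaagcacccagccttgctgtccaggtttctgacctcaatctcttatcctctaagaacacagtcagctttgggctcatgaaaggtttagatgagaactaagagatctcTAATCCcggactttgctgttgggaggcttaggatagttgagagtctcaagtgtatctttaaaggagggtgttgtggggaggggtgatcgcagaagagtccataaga
Opn1mw (chrX:157056105-157056354, plus strand): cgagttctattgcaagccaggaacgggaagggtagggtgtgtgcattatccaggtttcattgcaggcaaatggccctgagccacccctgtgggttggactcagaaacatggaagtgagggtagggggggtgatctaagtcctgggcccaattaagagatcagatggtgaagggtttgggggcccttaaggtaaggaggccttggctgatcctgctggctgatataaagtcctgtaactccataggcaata
Arr3 (chrX:69739709-69739958, plus strand): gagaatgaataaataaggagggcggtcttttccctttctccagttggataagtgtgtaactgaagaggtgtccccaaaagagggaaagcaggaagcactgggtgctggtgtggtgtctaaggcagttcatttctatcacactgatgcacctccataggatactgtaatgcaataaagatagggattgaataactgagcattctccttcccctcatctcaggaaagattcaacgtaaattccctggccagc
The Opn1sw window held the motif once, 106 bases before the start. No such letters were found in the windows of Opn1mw, Arr3, Pde6h or Cnga3. Over both strands and 300 bases (250 before and 50 after the start), 1 of the 5 windows held it, beside 7.17% of all 33469 windows in the same reference. Among the rod genes with a window, Pde6a, Cngb1 and Gngt1 held the motif, and Gnb1, Sag, Pde6b and Cnga1 did not. Pde6a, with it, and Gnb1, Sag, Pde6b and Cnga1, without it, were called lower in MSCEPO against NT. Cngb1 and Gngt1, with it, were not called there, at -0.89 and -0.69. Whether the motif goes with expression was not tested. A match of letters is not a measured binding site, and no match says only that the letters are not in this window.

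Against NT, the middle-wavelength opsin and cone arrestin were lower in retinas given cells and NaIO3, Gnb3 was higher, and the short-wavelength opsin showed no difference that passed the test. Opn1mw was called lower in MSC, MSCEPO and DPSC retinas, Arr3 in MSC and MSCEPO retinas, and Gnb3 was called higher in all 4 NaIO3 groups. The other 7 genes were called in no comparison. In whole retina, fewer cones and less RNA per cone cannot be told apart. The 4 comparisons with NT share the same 3 NT libraries, so their values are given side by side and not as repeats of each other.

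**Figure D1:**
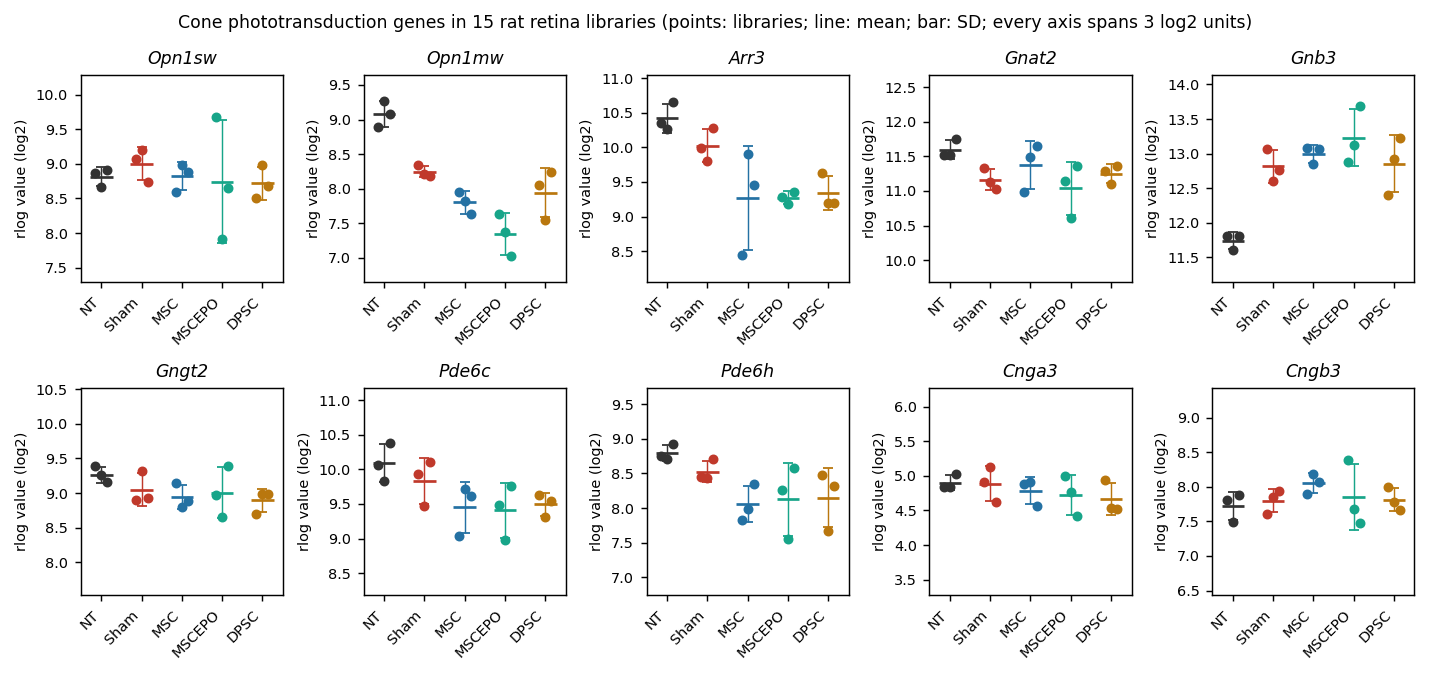
The rlog value (log2) of each of the 10 genes is plotted for every library of the 5 groups, with the group mean as a line and the SD (n = 3) as a bar, and each vertical axis spans 3 log2 units. Opn1mw lay between 8.90 and 9.27 in NT and at 8.34 or lower in every other library, whereas Gnb3 lay at 11.81 or lower in NT and at 12.41 or higher elsewhere.

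Opn1mw encodes the opsin tuned to middle wavelengths, which most rat cones carry. Its rlog values were 8.90, 9.27 and 9.08 in NT and 8.34, 8.21 and 8.19 in Sham. They were 7.95, 7.83 and 7.63 in MSC, 7.64, 7.37 and 7.03 in MSCEPO, and 8.05, 7.55 and 8.24 in DPSC. All 12 NaIO3 libraries were therefore below all 3 NT libraries. In MSCEPO the level was 1.73 log2 units lower than in NT (SE 0.19, 3.33-fold, adjusted p = 0.000195), in MSC it was 1.28 units lower (SE 0.19, adjusted p = 0.00148), and in DPSC 1.14 units lower (SE 0.19, adjusted p = 0.00868). The Sham difference of -0.84 (95% interval -1.25 to -0.43) did not pass (adjusted p = 0.0621). The DPSC call was lost without DPSC replicate 2, where the difference was -0.94.

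Opn1sw encodes the short-wavelength opsin. Its values were 8.87, 8.66 and 8.91 in NT, 9.08, 9.20 and 8.74 in Sham, and 8.60, 8.99 and 8.88 in MSC. In MSCEPO they were 9.67, 7.91 and 8.65, the widest spread of any of the 10 genes in any group (SD 0.89), and in DPSC they were 8.51, 8.98 and 8.68. Every group overlapped NT. The differences from NT were 0.19 in Sham, 0.01 in MSC, -0.07 in MSCEPO and -0.09 in DPSC, each with an SE of 0.32, and the MSCEPO interval ran from -0.77 to 0.63. Over all alternatives the MSCEPO difference ran from -0.78 to 0.35. The lowest adjusted p of limma there was 0.0059, with no call.

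The opsins were also set against each other within libraries, a comparison chosen after these values were seen. Opn1sw minus Opn1mw lay between -0.61 and -0.02 in the 3 NT libraries and between 0.44 and 2.04 in the 12 NaIO3 libraries, with no overlap. The difference was 1.26 log2 units higher in the NaIO3 libraries, Sham and cell-injected pooled, than in NT. This is a description with no test, and leaving out any 1 library gave 1.09 to 1.38. The 9 cell-injected libraries were 0.30 above the 3 Sham libraries by this measure, with overlap.

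Arr3, the arrestin of cones, had values of 10.35, 10.26 and 10.66 in NT and 9.99, 9.81 and 10.29 in Sham. In MSC they were 8.45, 9.91 and 9.46, in MSCEPO 9.28, 9.18 and 9.36, and in DPSC 9.62, 9.20 and 9.20. All 9 cell-injected libraries were below NT, and 1 of the 3 Sham libraries overlapped it. The differences from NT were -1.15 in MSC (SE 0.28, adjusted p = 0.0156), -1.15 in MSCEPO (adjusted p = 0.0206), -1.08 in DPSC (adjusted p = 0.062) and -0.40 in Sham (adjusted p = 0.666). The MSC value leaned on replicate 1, the library with the highest leukocyte levels: without it the difference was -0.74 and no longer past 2-fold. The part of the leukocyte transcripts in this value was not tested beyond that.

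Transducin carries the signal from opsin to phosphodiesterase. Gnb3, its cone beta subunit, which ON bipolar cells also express, moved opposite to the opsin and arrestin. Its values were 11.81, 11.60 and 11.81 in NT, 13.07, 12.61 and 12.77 in Sham, and 13.08, 12.85 and 13.07 in MSC. In MSCEPO they were 12.88, 13.13 and 13.68, and in DPSC 12.41, 12.93 and 13.22. Every NaIO3 library was above every NT library. The rise was 1.07 in Sham (SE 0.22, 2.10-fold, adjusted p = 0.0444), 1.26 in MSC (adjusted p = 0.00318), 1.49 in MSCEPO (2.80-fold, adjusted p = 0.00134) and 1.11 in DPSC (adjusted p = 0.0199). The Sham call was close to its threshold and was lost when any 1 of the 6 libraries was left out, with differences of 0.94 to 1.17. The DPSC call was lost without any of the 3 NT libraries and without DPSC replicates 2 or 3, with differences of 0.92 to 1.14.

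The 12 ON bipolar cell genes measured beside it (Grm6, Trpm1, Cabp5 and others) held none that was called higher. None was called lower in Sham, MSC or DPSC retinas, and in MSCEPO only Lrit3, a synaptic protein of these cells, was called, 1.24 lower (adjusted p = 0.011). The mean level of the list lay between -0.54 and 0.09 of its NT mean over all 15 libraries, with the lowest value in MSC replicate 1. Of the photoreceptor and bipolar sources, which one held the added Gnb3 was not tested.

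Gnat2, the cone transducin alpha subunit, had values of 11.52, 11.52 and 11.75 in NT, 11.32, 11.13 and 11.03 in Sham, and 10.98, 11.50 and 11.65 in MSC. In MSCEPO they were 11.15, 10.62 and 11.35, and in DPSC 11.29, 11.10 and 11.36. The Sham, MSCEPO and DPSC libraries lay below NT and the MSC libraries overlapped it, but no difference passed the test (-0.44 in Sham, -0.56 in MSCEPO, -0.34 in DPSC and -0.22 in MSC, each with an SE of 0.19, lowest adjusted p = 0.0852). Gngt2, the cone gamma subunit, ranged from 9.15 to 9.39 in NT and from 8.65 to 9.39 in the NaIO3 libraries. Its largest difference in the fit of all groups was -0.37 in DPSC (SE 0.18, adjusted p = 0.319). Over all alternatives, the lowest adjusted p of limma in MSCEPO against NT was 6.01e-06 for Gnat2 and 3.27e-05 for Gngt2. The differences there reached -0.89 for Gnat2 and -0.64 for Gngt2, under 2-fold, and neither gene was called.

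**Figure D2:**
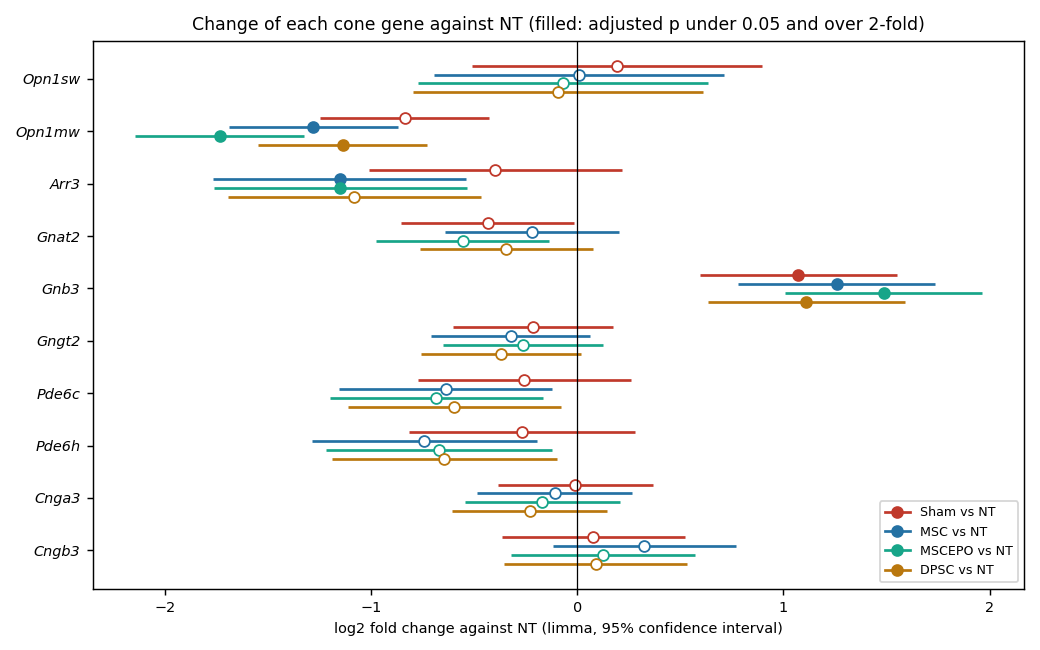
Points give the limma log2 fold change of each gene against NT for the 4 NaIO3 groups, lines give 95% confidence intervals, and filled points passed the adjusted p and 2-fold thresholds. The points of Opn1mw and Arr3 lie to the left and those of Gnb3 to the right of 0, while the intervals of Opn1sw, Gngt2, Cnga3 and Cngb3 include 0 in every group. The Arr3 interval includes 0 in Sham (-1.01 to 0.22).

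No difference of a phosphodiesterase subunit from NT passed the test, although their means were below NT in each NaIO3 group. Pde6c, the catalytic subunit of cones, had values of 10.07, 9.83 and 10.38 in NT, 9.93, 9.47 and 10.11 in Sham, 9.03, 9.71 and 9.62 in MSC, 9.49, 8.98 and 9.76 in MSCEPO, and 9.64, 9.31 and 9.54 in DPSC. Its differences from NT were -0.26 in Sham, -0.64 in MSC, -0.68 in MSCEPO and -0.60 in DPSC (SE 0.24, lowest adjusted p = 0.0856). Pde6h, the inhibitory subunit, had values of 8.75, 8.71 and 8.93 in NT, 8.45, 8.43 and 8.70 in Sham, 7.83, 7.99 and 8.34 in MSC, 8.25, 7.55 and 8.57 in MSCEPO, and 8.47, 7.67 and 8.31 in DPSC. Its 12 NaIO3 libraries all lay below NT, with differences of -0.27, -0.74, -0.67 and -0.65 (SE 0.25, lowest adjusted p = 0.0615).

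The channel subunits showed no difference from NT that passed. Cngb3, the modulatory subunit, had values of 7.81, 7.49 and 7.87 in NT and between 7.48 and 8.39 in the NaIO3 libraries. Its largest difference, 0.33 in MSC (SE 0.21, adjusted p = 0.316), was a higher value, and all 3 MSC libraries were above NT. Cnga3, the pore-forming subunit, was the gene nearest to the lower limit of testing, with values between 4.83 and 5.02 in NT and between 4.42 and 5.12 in the NaIO3 libraries. At that level rlog draws values together most, and its differences of -0.01 to -0.23 (SE 0.17) do not show that its expression was kept.

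Counted over the 10 genes, the shares called have to be read against those of all genes. In Sham against NT, 1 of 10 was called and it was higher, beside 0.292% of all tested genes called and 0.266% called higher, and 4 of 10 did not overlap NT beside 31.9% of all. In MSC against NT, 2 were called lower and 1 higher, beside 6.7% of all genes called, 0.985% lower and 5.71% higher, and 7 of 10 did not overlap beside 44.1%. In MSCEPO against NT, 2 were called lower and 1 higher, beside 3.57%, 1.24% and 2.33%, and 6 of 10 did not overlap beside 31.4%. In DPSC against NT, 1 was called lower and 1 higher, beside 0.784%, 0.259% and 0.525%, and 7 of 10 did not overlap beside 31.7%. The median difference of the 10 genes was -0.24 in Sham, -0.27 in MSC, -0.41 in MSCEPO and -0.36 in DPSC, where the median over all genes was within 0.01 of 0.

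Retinas given cells before NaIO3 were set against those given vehicle in the comparisons with Sham, which share the 3 Sham libraries. None of the 10 genes was called by limma in any of them, while 2, 2 and 1 had an unadjusted p under 0.05 in MSC, MSCEPO and DPSC, beside 2052, 1281 and 366 of all 15424 genes. Few genes of any kind were called: 0% of all tested genes in MSC, 0.0195% in MSCEPO and 0.013% in DPSC. The count for MSC hung on 1 library, since 524 genes were called without MSC replicate 3, with none of the 10 cone genes among them. Without MSCEPO replicate 3 the count for MSCEPO was 17 in place of 3, again with no cone gene. With library weights, 0, 407 and 117 genes were called in MSC, MSCEPO and DPSC, none of them a cone gene. With weights, 2, 7 and 3 of the 10 had an unadjusted p under 0.05. Over all alternatives, the lowest adjusted p of limma in MSCEPO was 0.000157 for Opn1mw, 0.0004 for Arr3 and 0.000487 for Pde6c. It was 0.00071 for Pde6h, 0.0026 for Gnat2, 0.0097 for Opn1sw and 0.041 for Gngt2. The Opn1sw difference ran from -0.95 to 0.16 over these alternatives. No alternative gave a call, and in MSCEPO Gnb3, Cnga3 and Cngb3 stayed at 0.29 or higher. Without weights, Opn1mw was 0.90 lower in MSCEPO than in Sham (95% interval -1.31 to -0.49, adjusted p = 0.14). It was 0.44 lower in MSC (adjusted p = 0.328), with no overlap in either group, and -0.30 apart in DPSC. Arr3 was 0.75 lower in MSC and in MSCEPO and 0.68 lower in DPSC (SE 0.28, lowest adjusted p = 0.256), and the MSC value was -0.34 without MSC replicate 1 (adjusted p = 0.681). By overlap, 2 of 10 genes in MSC (Opn1mw and Pde6h), 2 in MSCEPO (Opn1mw and Arr3) and 1 in DPSC (Arr3) lay wholly below Sham, beside 24.5%, 14.3% and 9.82% of all genes that did not overlap.

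With the 3 cell-injected groups averaged against Sham, none of the 10 genes was called either, beside 0.013% of all genes, and 2 had an unadjusted p under 0.05 beside 1514 of all 15424 genes. These were Opn1mw at -0.55 (SE 0.15, adjusted p = 0.349) and Arr3 at -0.73 (SE 0.23, adjusted p = 0.412). With library weights, 4 of the 10 had an unadjusted p under 0.05, and none was among the 163 genes called. Over all alternatives, the lowest adjusted p of limma was 0.0092 for Arr3, 0.012 for Opn1mw and 0.027 for Pde6c. The other cone genes stayed above 0.05. None of the 10 was free of overlap between the 9 and the 3 libraries, beside 2.77% of all genes. Gnb3 was 0.21 above Sham (95% interval -0.18 to 0.60) and Gnat2 0.06 above it (-0.28 to 0.41), and the median of the 10 genes was -0.20.

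The cell types were compared directly as well. None of the 10 genes was called between MSC and MSCEPO, between DPSC and MSC or between DPSC and MSCEPO, and 0% of all tested genes were called in each of the 3 comparisons. With library weights, 373 genes were called between DPSC and MSCEPO. None of the 10 was among them, although 7 of the 10 had an unadjusted p under 0.05 with weights. Over all alternatives of this comparison, the lowest adjusted p of limma was 0.00076 for Opn1mw, 0.00095 for Gnat2 and 0.0013 for Pde6h. It was 0.0044 for Gnb3, 0.0044 for Pde6c and 0.030 for Arr3. These differences stayed under 2-fold, and Opn1sw, Gngt2, Cnga3 and Cngb3 stayed above 0.05. Without weights, 1 of 10 had an unadjusted p under 0.05 in MSC against MSCEPO, 0 in DPSC against MSC and 1 in DPSC against MSCEPO. Of all genes, 585, 1083 and 382 did. The gene was Opn1mw both times, 0.45 higher in MSC (SE 0.19, adjusted p = 0.754) and 0.60 higher in DPSC (adjusted p = 0.996) than in MSCEPO. The groups therefore fell in the order NT, Sham, DPSC, MSC and MSCEPO for Opn1mw by their means of 9.08, 8.25, 7.95, 7.80 and 7.35, and no neighboring pair in that order differed past the thresholds.

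Rods offer a measure of whether the cone genes changed by the same amount as the photoreceptor genes at large. Each of 8 cone genes was set against its rod paralog within the same library, so that the scaling of libraries cancels, and the difference was compared between the 12 NaIO3 and the 3 NT libraries by a two-sided exact permutation test. In the NaIO3 libraries the cone gene stood higher relative to its rod partner, past the threshold, in 6 of 8 pairs. Of these libraries, 9 also had cells and immunosuppressants and all had an intravitreal injection. NaIO3 cannot be told apart from these in the pooled comparison. By group, Gnat2 minus Gnat1 was 0.73 above its NT mean in Sham, 2.09 in MSC, 1.98 in MSCEPO and 1.31 in DPSC. In all 8 pairs the cone gene had lower rlog values than its rod partner in every library, and rlog draws low values together most. A smaller change of a cone gene can therefore partly reflect the transformation, and that part was not tested. One of the 6 is Cnga3, the lowest of the cone genes, whose smaller change cannot be told apart from the transformation. Gnat1, the rod transducin alpha subunit, fell by 2.53 in MSCEPO against NT (adjusted p = 0.00268) and by 2.31 in MSC (adjusted p = 0.00407). Of 9 rod genes, 0, 6, 7 and 1 were called lower in Sham, MSC, MSCEPO and DPSC, beside 0.0259%, 0.985%, 1.24% and 0.259% of all genes. Their median differences were -0.64, -1.16, -1.39 and -0.93.

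In the pooled NaIO3 libraries, Gnat2 rose against Gnat1 by 1.53, Gnb3 against Gnb1 by 2.31, Cnga3 against Cnga1 by 0.94 and Cngb3 against Cngb1 by 0.89. In these 4 pairs all 12 NaIO3 libraries were above all 3 NT libraries, and the exact permutation p of 0.0022 is the smallest the design can give. Gnb3 itself was 1.23 higher than in NT and Gnb1 1.07 lower. ON bipolar cells also express Gnb3, so its pair is not a measure of cones alone. Pde6c against Pde6b (0.72, exact permutation p = 0.0044) and Pde6h against Pde6g (0.58, p = 0.011) also differed, with overlap between the groups. These 6 of 8 pairs stayed under 0.05 after Benjamini-Hochberg adjustment over the 8 pairs. With Pde6a in place of Pde6b, Pde6c differed by 0.35 and did not pass (adjusted p = 0.206).

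Arr3 and its rod partner Sag did not separate: Arr3 differed from NT by -0.95 and Sag by -0.91, a difference of -0.04 between them (exact permutation p = 0.888). The 12 NaIO3 libraries spread from -7.11 to -5.42 in this measure, on either side of the NT range of -6.31 to -6.04. Gngt2 against Gngt1 differed by 0.23 (p = 0.103, exact permutation). Leaving out NT replicate 2 left 4 of 8 pairs past the threshold.

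**Figure D3:**
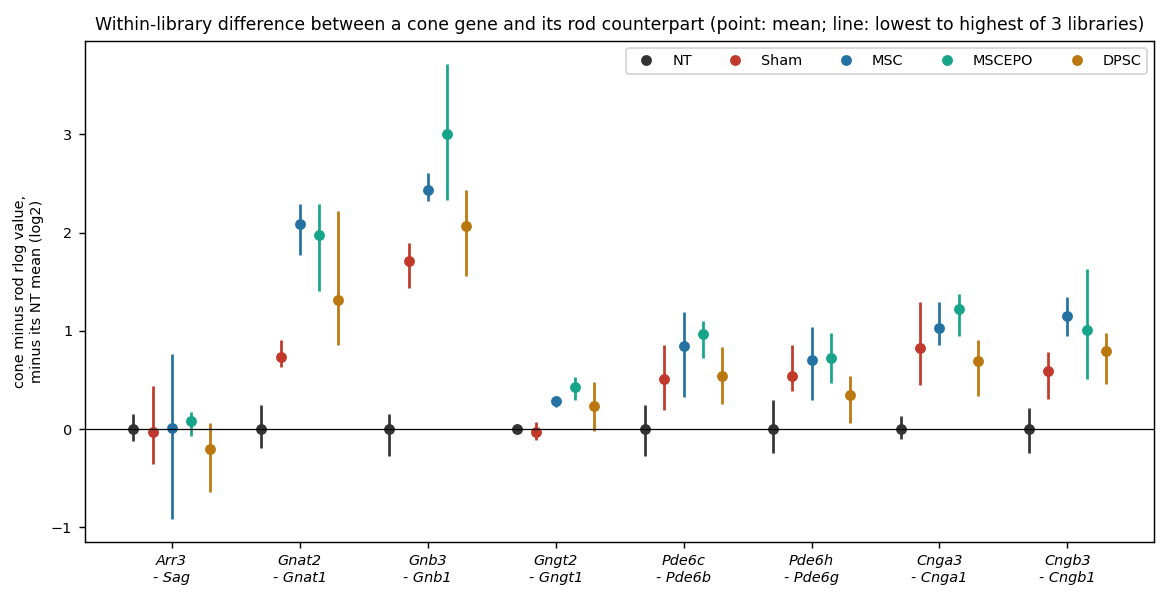
For each pair, the cone rlog value minus the rod value of the same library, less its NT mean, is plotted in log2 units, with the group mean as a point and the lowest to highest of 3 libraries as a line. Gnb3 minus Gnb1 stood highest, at 1.71 in Sham, 2.43 in MSC, 3.01 in MSCEPO and 2.07 in DPSC, and Arr3 minus Sag stayed around 0.

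Between cell-injected and Sham libraries, 0 of 8 pairs passed after adjustment. Before it, Gnat2 against Gnat1 (1.06 higher in the 9 cell-injected libraries, exact permutation p = 0.0136), Gngt2 against Gngt1 (0.34, p = 0.0136) and Gnb3 against Gnb1 (0.79, p = 0.0455) were under 0.05, and the lowest adjusted p was 0.0545. Adjusted over these 8 pairs, all 3 passed without DPSC replicate 1 and the first 2 passed without DPSC replicate 3 (adjusted p = 0.0485 in each case). Adjusted over the 10 pairs planned, with the 2 not reported entered at p = 1, none passed by the same exact permutation test (lowest adjusted p = 0.0606). This count was chosen after seeing the data. Of the pair of Gnat2 and Gnat1, Gnat1 was -0.997 from Sham and Gnat2 0.06.

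Genes that act beside the cascade were counted from lists. Of all genes, 0.0259%, 0.985%, 1.24% and 0.259% were called lower in Sham, MSC, MSCEPO and DPSC against NT, and the counts stand beside these shares. Among 12 tested genes of shutoff and calcium feedback, most of them used by rods or by both photoreceptors, 7 were called lower in MSC, 11 in MSCEPO and 2 in DPSC against NT, and none in Sham. Grk1, a kinase that helps to end the light response, fell by 1.78 in MSCEPO (adjusted p = 0.000165). Gnb5, the beta subunit of the complex that ends transducin signaling, fell by 1.18 there (adjusted p = 0.000427). Slc24a1, the exchanger of the rod outer segment, fell by 1.58 (adjusted p = 0.000176), while its cone counterpart Slc24a2 differed by -0.21 (adjusted p = 0.66).

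Among 12 photoreceptor transcription factors, 1 was called lower in Sham, 4 in MSC, 6 in MSCEPO and 2 in DPSC, and none higher. Esrrb, a nuclear receptor of rods, was the one called in Sham, where it fell by 1.19 (adjusted p = 0.0499), and it fell by 2.54 in MSCEPO (adjusted p = 0.000157). Crx, which drives genes of both photoreceptors, fell by 1.47 in MSCEPO (adjusted p = 0.000176), and Nrl, which sets rod fate, fell by 1.51 (adjusted p = 0.000293). In MSCEPO, Thrb differed by -0.57 (adjusted p = 0.00265, under 2-fold) and Rxrg by -0.03 (adjusted p = 0.915), both nuclear receptors of cones that were picked after their values were seen.

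The list of 11 visual cycle and retinoid genes had 0, 5, 4 and 2 called lower in Sham, MSC, MSCEPO and DPSC, and the 7 measured outer segment genes had 0, 2, 3 and 0. Rbp3, the retinoid carrier between photoreceptors and pigment epithelium, fell by 1.68 in MSCEPO (adjusted p = 7.61e-05), and Rp1, a protein of the outer segment axoneme, fell by 1.49 (adjusted p = 0.000552).

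Markers of some other cell types differed from NT in some of the NaIO3 groups. The counts stand beside 0.266%, 5.71%, 2.33% and 0.525% of all genes called higher in Sham, MSC, MSCEPO and DPSC. Called lower were 0.0259%, 0.985%, 1.24% and 0.259%. Of 14 macrophage and microglia genes, 0, 14, 11 and 3 were called higher in Sham, MSC, MSCEPO and DPSC against NT, and the mean level of the list ranged from 0.84 to 1.49 above its NT mean in Sham, 1.90 to 3.65 in MSC, 1.52 to 2.41 in MSCEPO and 0.98 to 2.21 in DPSC. Of 13 T and NK cell genes, 9 were called higher in MSC and none in the other groups, and of 5 B and plasma cell genes 5 in MSC and none elsewhere. Mueller glia genes had 1, 3, 3 and 3 of 10 called higher, led by Gfap, the filament of reactive glia, which rose by 3.38 in Sham (adjusted p = 0.000403). The list was mixed, with 4, 3, 3 and 3 of the 10 below NT by their means, none of them called. None of 10 ganglion cell genes and none of 10 tested amacrine and horizontal cell genes was called in any group against NT. Of 9 pigment epithelium genes, 0, 3, 2 and 0 were called lower. Rpe65, Lrat and Rgr are in this list and in the visual cycle list, so the counts of these lists are not separate. The mean level of the 9 genes ranged from -0.55 to 0.53 within NT alone. The 7 lens genes were not called, and their mean level ranged from -0.61 to 5.50 within the DPSC group alone. The part of these markers in the cone values was not tested. The rlog scale does not show which of them had no reads.

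**Figure D4:**
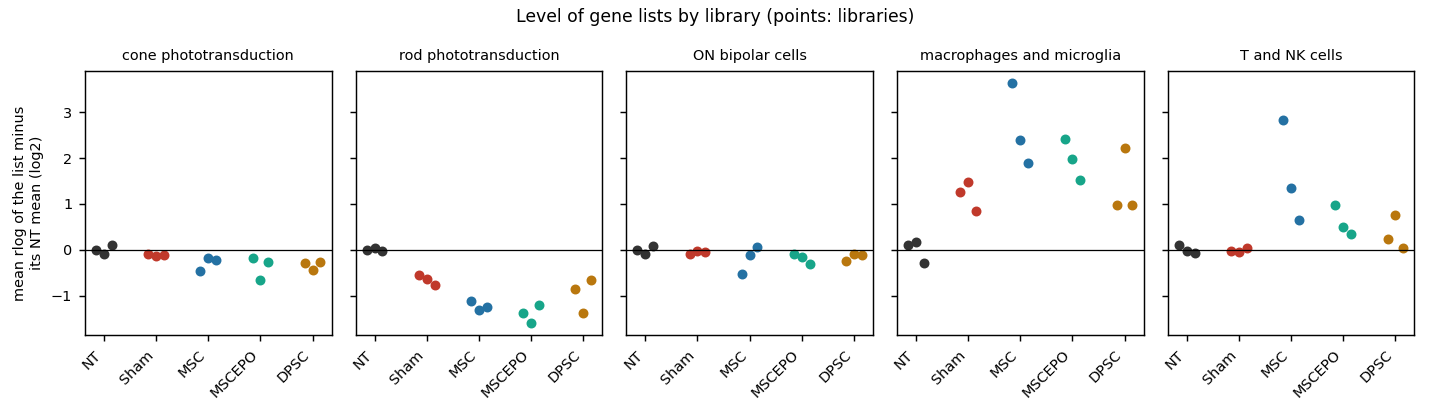
The mean rlog value of each gene list, less its NT mean, is plotted in log2 units for each library of the 5 groups. The cone list stayed between -0.66 and 0.11 in all 15 libraries and the rod list reached -1.61, while the macrophage and T and NK cell lists were highest in MSC replicate 1.

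For the 3 genes whose group means spanned more than 1 log2 unit, the genes with the most similar pattern over the 15 libraries were listed as a description. The libraries share their group, so such correlations carry the group differences. Closest to Opn1mw were Gnb1 (Pearson r = 0.99), the transducin beta subunit of rods, Arntl (r = 0.989), the clock transcription factor also named Bmal1, and Herc3 (r = 0.988), a HECT-type ubiquitin ligase. Closest to Arr3 were Ttc19 (r = 0.914), a factor of mitochondrial complex III, Elac1 (r = 0.894), a tRNA-processing nuclease, and Mast2 (r = 0.891), a microtubule-associated kinase. Closest to Gnb3 were Rasip1 (r = 0.946), a Ras-interacting protein of endothelial cells, Gnb2 (r = 0.944), another beta subunit, and Grsf1 (r = 0.942), an RNA-binding protein of mitochondria.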

How the data were processed

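Per the labels and the study's methods, the authors quantified stranded mRNA libraries with Salmon 1.1.0 on the Ensembl transcripts of Rnor_6.0 and deposited log2 values made with the rlog transformation of DESeq2 (named with version 3.2 in the submitters' notes). The deposited log2 values are not counts, so no count model was run and no depth per library, counting interval or detection floor is given; 3 libraries a group limit the precision. Human donor reads were not separated from rat reads in the files used here. Another table, with 15 per-sample columns whose names matched no sample label, was not used.

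Genes with a mean rlog of at least 3.32 (log2 of 10) were tested with limma 3.58.1 (R 4.3.3; trend on the mean) on all 15 libraries and group means, with Benjamini-Hochberg adjustment over 15424 of 20375 genes in each of 11 comparisons. Of the measured genes, 2591 had no symbol. Exact permutation tests were used for differences within libraries (smallest p 0.1 for 3 against 3, so single groups were not tested). The code was tested on simulated data. Members and lists were chosen with earlier results of these data known. All 10 cone genes and their rod counterparts were named, except that 1 rod gene and the 2 pairs of 10 that need it are not reported here, with up to 4 genes of smallest adjusted p per other list, and the 3 genes of highest Pearson r for cone genes spanning over 1 log2 unit. Thrb, Rxrg and Slc24a2 were named outside that rule, after their values were seen. Alternatives were the filter, samples in the fit, scaling, moderation, library weights, replicate block and each library left out. The comparison of the opsins and the adjustment over the 10 pairs planned were added after seeing the data. Promoters came from RefSeq on GRCr8.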

Additional observations from a re-analysis of the deposited data

How the results depend on the processing

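Over all alternatives, 1653 of 1770 values of single cone genes kept their direction and side of the thresholds, 92 that were not called changed sign, 22 lost a call, 3 gained one and no called value changed sign. The number of cone genes called in Sham against NT went from 1 to 0 without the filter on low values and with centring of each library on its median, and was 0 to 0 when 1 library was left out. With library weights, the number rose from 3 to 5 in MSCEPO against NT (Pde6c and Pde6h added) and went from 2 to 0 in DPSC against NT (Opn1mw at -0.98 and Gnb3 at 0.76, under 2-fold with adjusted p of 3.55e-05 and 0.000774), where leaving out 1 library gave 0 to 2. With weights, 5, 5, 8 and 7 of the 10 cone genes had an unadjusted p of limma under 0.05 in Sham, MSC, MSCEPO and DPSC against NT. Without weights, 3, 5, 6 and 5 did. The cause of these changes was not tested. Leaving out 1 library gave 2 to 3 in MSC and in MSCEPO against NT, and the pairs of cone and rod genes passing with NaIO3 went from 6 to between 4 and 6, with the lowest count without NT replicate 2. Between cell-injected and Sham libraries the pairs passing went from 0 to between 0 and 3, with 3 without DPSC replicate 1 and 2 without DPSC replicate 3, adjusted over the 8 pairs reported. By the same exact permutation test adjusted over 10 pairs, with the 2 not reported at p = 1, the numbers were 0 in both. With NaIO3 they were 6 with all libraries and 3 without NT replicate 2. This setting was chosen after seeing the data and can only raise the adjusted p, so it is not the planned adjustment. Opn1mw and Gnb3 kept their calls in 16 of 16 settings in MSC and in MSCEPO against NT. Arr3 kept its call in 13 of 16 settings in each, and was lost in MSC when only the compared groups were fitted (adjusted p = 0.0717) or without NT replicate 3 (0.0667), and in MSCEPO without NT replicate 1 (0.0547), NT replicate 3 (0.0909) or MSCEPO replicate 2 (0.0659). Replicate numbers did not pair the libraries over all groups: 12 of 30 same-number pairs correlated over 0.1 (range -0.44 to 0.65), with all 3 pairs over 0.1 only between MSC and MSCEPO (0.26, 0.16 and 0.28), and 23 of 60 matches of a library with another group were best with its own number. With the replicate number as a block, 1, 3, 3 and 2 cone genes were called in Sham, MSC, MSCEPO and DPSC against NT, as without it, and 0 in every other comparison. The genes called over the whole table were 56, 1078, 605 and 158 with the block and 45, 1033, 551 and 121 without it. Over the whole table, library weights gave 160, 789, 1053 and 355 called genes in Sham, MSC, MSCEPO and DPSC against NT, 407, 117 and 163 in MSCEPO, DPSC and all cell-injected groups against Sham (3, 2 and 2 without weights) and 373 between DPSC and MSCEPO (0 without), and a fit of the compared groups gave 177 in Sham against NT and 32 in MSC against Sham (0 in the fit of all groups). With the adjusted p alone, 137, 2677, 1795 and 439 genes passed against NT, with the same cone genes as before. The depth of each library is not given in the values used here, so its limits were not computed.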

Other observations

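The G protein beta subunits, of which Gnb4 was added after the values were seen, did not move together. Gnb1, the rod subunit, fell by 1.17 in MSC against NT (SE 0.17, adjusted p = 0.00141) and by 1.52 in MSCEPO (adjusted p = 0.000229), and was called in neither Sham nor DPSC. Gnb5, which works in the shutoff complex, fell by 1.104 in MSC (adjusted p = 0.000868) and by 1.18 in MSCEPO (adjusted p = 0.000427), and differed by -0.65 in Sham (adjusted p = 0.0598) and -0.80 in DPSC (adjusted p = 0.013). Gnb2, which is expressed in many cell types, differed by 0.54 in Sham (adjusted p = 0.119), 0.79 in MSC (adjusted p = 0.00437), 0.93 in MSCEPO (adjusted p = 0.00199) and 0.67 in DPSC (adjusted p = 0.031), each under 2-fold and with all 3 libraries of each group above NT. Gnb4 differed by -0.09, 0.34, -0.04 and 0.04 in the same order, with overlap in every group. All adjusted p-values are from limma over all tested genes.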
